A study of Homo sapiens with 4 samples.

Results

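Genes best known from neurons or other excitable tissue were followed in BEAS2B cells, an immortalized line of human bronchial epithelium, after knockdown of the RNA-binding protein QKI. The members are 7 of the 16708 genes listed in at least 1 library: GABRA3, SLITRK5, PCDH7, IGFN1, BRSK2, P2RX5 and NPPB. They were picked for having moved with QKI knockdown in these same libraries, so their difference between sh-QKI and sh-Ctrl cells is given as a description, without a test. Levels are in RPKM, which counts reads per gene length and per library total; a missing value was set to 0, which none of the 7 needed.

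RNA was sequenced from 2 libraries of sh-QKI cells, which carry 1 retroviral shRNA that targets all QKI isoforms, and from 2 libraries of sh-Ctrl cells, which carry a retroviral shRNA against luciferase. The libraries of each group carry the numbers replicate 1 and replicate 2. Both groups were grown in DMEM with fetal bovine serum and are derivatives of the same virus-transformed line. No label or method describes them as separate cultures, and the p-values below reflect the spread of these libraries alone, possibly a technical one. The sh-QKI libraries rest on a single targeting sequence, which limits them as a model of QKI loss.

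QKI is a STAR-family RNA-binding protein that binds ACUAA-type sequences in RNA and regulates splicing, mRNA stability and transport. It is known best for its role in glia and myelination, and it is also made in epithelia. The members encode subunits of ion channels, adhesion molecules of synapses, a kinase that shapes neurons, a muscle protein and a hormone of the heart.

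The sequence that the shRNA targets and the stretches of the members that resemble the sequence QKI binds are shown first, as they are what links QKI to a transcript by its letters. The target of the shRNA lies once in the QKI mRNA, in the coding sequence, at chr6:163956115-163956133 of hg19 on the plus strand.
sh-Q3 target: gaagagagcagttgaagaa

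The canonical transcript of each gene was searched on its sense strand for ACTAAC and ACTAAT, written as DNA. Of the tested genes with such a transcript, 48.1% held at least 1 match. A match was found in 4 of the 7 members, namely GABRA3, SLITRK5, PCDH7 and BRSK2, and none was found in IGFN1, P2RX5 or NPPB. The matches are in capitals below, each with 8 bases on either side.
GABRA3, 3′ UTR, chrX:151336122-151336127, minus strand: caattggtACTAACcaccgtct
SLITRK5, 5′ UTR, chr13:88323932-88323937, plus strand: gagttccaACTAATgacgattg
SLITRK5, 5′ UTR, chr13:88324035-88324040, plus strand: tctcaaatACTAATtaggggcc
PCDH7, 5′ UTR, chr4:30722165-30722170, plus strand: gcttcgtgACTAATgaccttgc
PCDH7, 3′ UTR, chr4:31145283-31145288, plus strand: tattattaACTAACttgaacaa
PCDH7, 3′ UTR, chr4:31145858-31145863, plus strand: actttatcACTAATgtgatttg
PCDH7, 3′ UTR, chr4:31146770-31146775, plus strand: tctataaaACTAATacgggtca
BRSK2, coding sequence, chr11:1480427-1480432, plus strand: cagacaccACTAACtgtatgga

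A stricter pattern, in which ACTAAC or ACTAAT is followed within 1 to 20 bases by TAAC or TAAT, was held by 13.99% of the same genes and by 0 of the 7 members. The QKI mRNA itself held 7 of the shorter matches and 2 of the stricter ones. One of these is shown for comparison, with both of its pieces in capitals.
QKI, 3′ UTR, chr6:163998980-163998997, plus strand: agttaaACTAATtgaccatcTAATagttgt

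These are matches of letters in the reference sequence and not measured binding sites. They were looked for in exons only, and introns were not searched.

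The total behind the RPKM values was 20571555 and 34862008 reads in sh-QKI replicates 1 and 2, against 20052951 and 34706058 in sh-Ctrl replicates 1 and 2. These were recovered from the deposited values. The recovered reads summed over genes exceeded these totals, at 31145736 and 48091243 in sh-QKI libraries and at 30740875 and 46802871 in sh-Ctrl libraries. The recovered gene length also differed from the exon length in the annotation, at 14907 against 6903 bases for BRSK2 and 8816 against 4031 for P2RX5. Of the members only SLITRK5 was shorter, at 6877 against 21942. The cause was not tested, and the read counts and counting intervals below take the recovered reads as they stand. If reads were counted more than 1 time, the intervals are too narrow. QKI mRNA was present at 2.52 and 3.85 RPKM in sh-QKI cells, against 8.94 and 14.6 RPKM in sh-Ctrl cells. This was the lowest log2 difference of all 11829 genes tested, at -1.72, yet limma without a term for the replicate number gave an adjusted p of 1.00. With a block for the replicate number, the limma adjusted p was 3.16e-33, while voom with the same block gave 5.32e-08. The size of such a p-value from 4 libraries rests largely on a variance taken from all genes. Without the block, limma called 0 genes, with 4 higher and 9 lower at an unadjusted p under 0.05, while voom, run on recovered reads, called 0 as well.

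Of the members, 4 were lower and 3 were higher in sh-QKI cells by the mean of their log2 values. The libraries of the groups did not overlap for 5 of the 7, of which 4 were lower and 1 was higher. Among all tested genes, 2.89% were lower and 5.71% higher without overlap. A ratio past 2-fold within both replicate numbers was seen for GABRA3, SLITRK5 and PCDH7, all lower, and for BRSK2 and P2RX5, both higher. The same held for 0.101% of the tested genes in the lower direction and for 0.0761% in the higher one. Nothing is read from these shares, since the members were chosen on this contrast. All 7 passed the filter of a mean of 0.5 RPKM over the 4 libraries, but SLITRK5 and PCDH7 were below 0.5 RPKM on average in sh-QKI cells, and BRSK2 was below it in sh-Ctrl cells. These 3 passed only through the group in which they are higher.

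**Figure D1:**
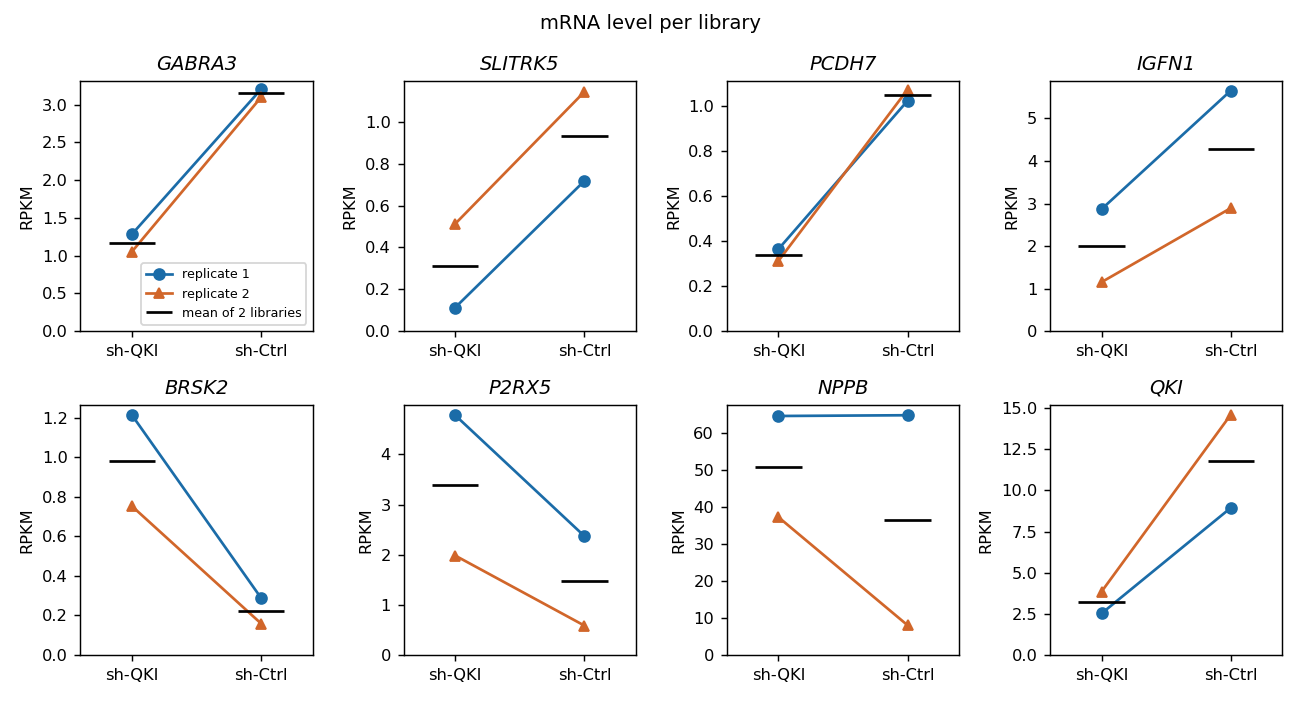
mRNA level of the 7 members and QKI in RPKM, with a panel for each gene on a linear axis. Each point is a library, with sh-QKI left of sh-Ctrl. Libraries of the same replicate number are joined by a line, and short bars give the group means. The levels of the members run between 0.113 RPKM for SLITRK5 in sh-QKI replicate 1 and 64.9 RPKM for NPPB in sh-Ctrl replicate 1.

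The ligand-gated channels are GABRA3 and P2RX5. GABRA3 (chrX:151334706-151619787 of hg19, minus strand, 10 exons) encodes the alpha-3 subunit of the GABA-A receptor, the chloride channel that carries fast inhibition in the brain. GABRA3 was at 1.29 and 1.05 RPKM in sh-QKI replicates 1 and 2, against 3.21 and 3.10 RPKM in sh-Ctrl replicates 1 and 2. Both sh-QKI libraries lay below both sh-Ctrl libraries, and within a group the libraries lay close together, at 1.17 ± 0.163 RPKM in sh-QKI cells and 3.15 ± 0.0753 RPKM in sh-Ctrl cells (SD, n = 2 each). The ratio of sh-QKI to sh-Ctrl was 0.401 (95% interval 0.328 to 0.487) within replicate 1 and 0.340 (0.289 to 0.400) within replicate 2. These intervals are exact, rest on 146 and 203 reads in sh-QKI cells against 355 and 594 in sh-Ctrl cells, and cover counting error only, as do all intervals of this kind given below. In RNA from a whole culture, fewer cells that make an mRNA and less of it per cell cannot be told apart.

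P2RX5 (chr17:3575493-3599534, minus strand, 12 exons) encodes the P2X5 receptor, a cation channel opened by extracellular ATP. P2RX5 was at 4.78 and 1.98 RPKM in sh-QKI replicates 1 and 2, against 2.37 and 0.585 RPKM in sh-Ctrl replicates 1 and 2. The groups overlapped, since sh-QKI replicate 2 lay below sh-Ctrl replicate 1, while within each number the sh-QKI library was the higher one. The ratio was 2.02 (1.79 to 2.27) within replicate 1 and 3.39 (2.86 to 4.02) within replicate 2, and the means were 3.38 ± 1.98 and 1.48 ± 1.26 RPKM in sh-QKI and sh-Ctrl cells (SD, n = 2 each). P2RX5 shares 1743 exon bases on the same strand with a readthrough gene that joins it to TAX1BP3. The readthrough, listed under the symbol RP11-48B14.2, was at 19.98 and 11.4 RPKM in sh-QKI cells and at 22.5 and 10.2 RPKM in sh-Ctrl cells, a mean log2 difference of -0.01. How reads in the shared exons were counted is not stated, so the level of P2RX5 is uncertain.

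The cell-surface adhesion molecules are SLITRK5 and PCDH7, and both were lower in sh-QKI cells. SLITRK5 (chr13:88323626-88348527, plus strand, 2 exons) encodes a transmembrane protein with leucine-rich repeats that organizes synapses. SLITRK5 was at 0.113 and 0.513 RPKM in sh-QKI replicates 1 and 2, against 0.718 and 1.14 RPKM in sh-Ctrl replicates 1 and 2. Replicate 2 was the higher library in both groups, and the lowest value of any member, in sh-QKI replicate 1, rests on 16 reads, against 99 in sh-Ctrl replicate 1. The ratio was 0.158 (0.0867 to 0.269) within replicate 1 and 0.449 (0.360 to 0.557) within replicate 2.

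PCDH7 (chr4:30721991-31148427, plus strand, 3 exons) encodes a nonclustered protocadherin, a calcium-dependent adhesion molecule found in brain and heart. PCDH7 was at 0.365 and 0.312 RPKM in sh-QKI replicates 1 and 2, against 1.02 and 1.07 RPKM in sh-Ctrl replicates 1 and 2. In RPKM it had the smallest spread within groups of the 7 members, with 0.338 ± 0.0371 RPKM in sh-QKI cells and 1.05 ± 0.0350 RPKM in sh-Ctrl cells (SD, n = 2 each). The ratio was 0.356 (0.287 to 0.439) within replicate 1 and 0.291 (0.245 to 0.344) within replicate 2.

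Inside the cell act IGFN1 and BRSK2. IGFN1 (chr1:201159952-201198080, plus strand, 24 exons) encodes an immunoglobulin and fibronectin domain protein known from the Z-disc of skeletal muscle. IGFN1 was at 2.87 and 1.15 RPKM in sh-QKI replicates 1 and 2, against 5.65 and 2.89 RPKM in sh-Ctrl replicates 1 and 2. The highest sh-QKI library, at 2.869 RPKM, and the lowest sh-Ctrl library, at 2.892 RPKM, all but touched. Replicate 2 was the lower library in both groups. The ratio was 0.507 (0.467 to 0.551) within replicate 1, just short of 2-fold, and 0.399 (0.362 to 0.439) within replicate 2.

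BRSK2 (chr11:1411129-1483919, plus strand, 20 exons) encodes a kinase that LKB1 activates and that, together with BRSK1, is needed for the polarity of mouse neurons. BRSK2 was at 1.21 and 0.752 RPKM in sh-QKI replicates 1 and 2, against 0.288 and 0.158 RPKM in sh-Ctrl replicates 1 and 2. Both sh-QKI libraries were above both sh-Ctrl libraries. The ratio was 4.22 (3.33 to 5.395) within replicate 1 and 4.75 (3.73 to 6.10) within replicate 2, on 372 and 391 reads in sh-QKI cells against 86 and 82 in sh-Ctrl cells.

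The secreted member is NPPB (chr1:11917521-11919002, minus strand, 3 exons), which encodes B-type natriuretic peptide, a hormone of the heart that lowers blood volume and pressure. NPPB was at 64.7 and 37.3 RPKM in sh-QKI replicates 1 and 2, against 64.9 and 8.03 RPKM in sh-Ctrl replicates 1 and 2. Both sh-QKI libraries and sh-Ctrl replicate 1 were high, and sh-Ctrl replicate 2 was low. The ratio was 0.997 (0.926 to 1.07) within replicate 1 and 4.65 (4.10 to 5.28) within replicate 2, so NPPB was higher in sh-QKI cells within a single number. Its mean log2 difference of 1.07 turned to -0.40 without sh-Ctrl replicate 2. On the log2 scale the difference within replicate 2 exceeded that within replicate 1 by 2.15, the widest gap of all 11829 genes tested, for which the median gap was 0.174. NPPB was the most abundant member per length, above 93.5% of the tested genes in sh-QKI cells and above 89.8% in sh-Ctrl cells.

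**Figure D2:**
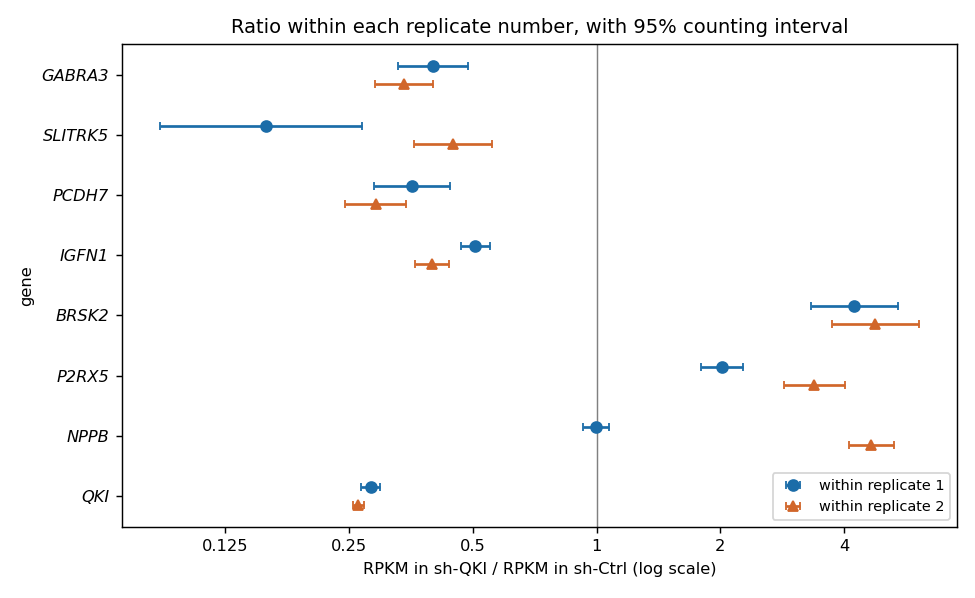
Ratio of sh-QKI to sh-Ctrl RPKM within replicate 1 and within replicate 2 for the 7 members and QKI, on a log axis. The 95% exact intervals cover counting error. NPPB sits at 0.997 within replicate 1 and at 4.65 within replicate 2, while the other 6 members lie on the same side of 1 in both numbers.

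On the scale of log2(RPKM + 0.5), which understates the change of genes near 0.5 RPKM, the mean difference was -1.13 for GABRA3, -0.95 for IGFN1, -0.89 for PCDH7 and -0.84 for SLITRK5. It was 1.07 for NPPB, 1.04 for P2RX5 and 1.02 for BRSK2. The within-number differences of all tested genes had an SD of 0.196 in replicate 1 and 0.208 in replicate 2. In the order of all tested genes from the lowest difference, GABRA3 was 4, IGFN1 was 6, PCDH7 was 10 and SLITRK5 was 13. From the highest, NPPB was 5, P2RX5 was 6 and BRSK2 was 7.

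**Figure D3:**
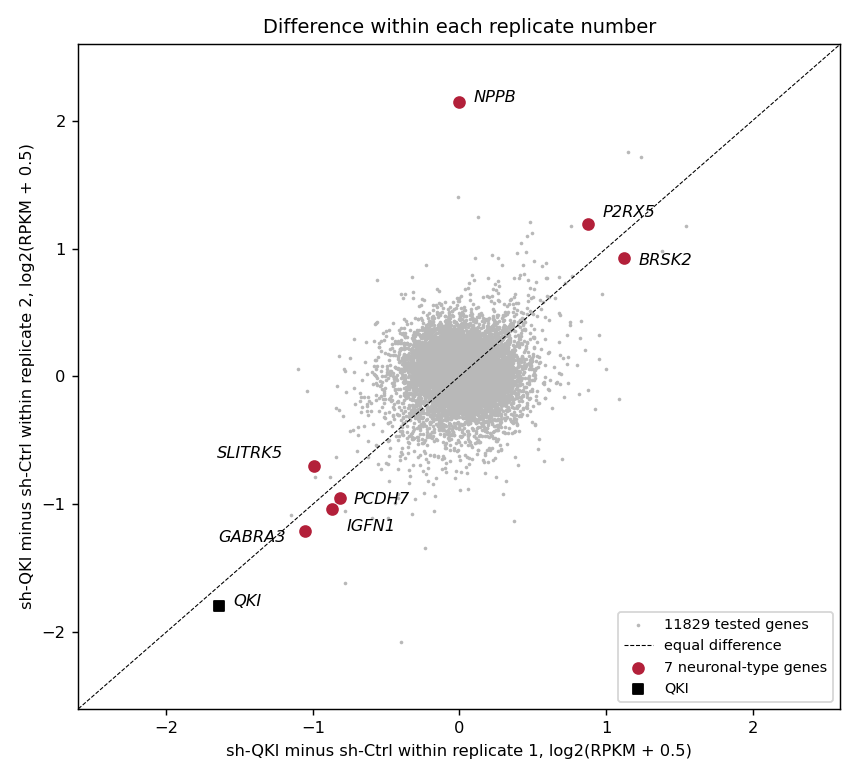
Log2 difference of sh-QKI from sh-Ctrl within replicate 2 (vertical axis) against that within replicate 1 (horizontal axis), on log2(RPKM + 0.5), for the tested genes, with the 7 members and QKI named. GABRA3, at -1.05 within replicate 1 and -1.21 within replicate 2, lies near the line of equal differences, and NPPB, at -0.00 and 2.15, lies farthest from it.

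The replicate number moved the members as well. This contrast was not the one used to choose them, but it rests on the same libraries. For NPPB both contrasts turn on sh-Ctrl replicate 2, without which its difference between groups was -0.40. SLITRK5, PCDH7 and BRSK2 entered through a filter that they passed only in the group in which they are higher. The contrast of the numbers was tested with limma over all genes, with the group as a block. Of all tested genes, 70.9% differed between replicate 2 and replicate 1, 35.2% higher and 35.7% lower in replicate 2. Of the 7 members, 5 differed, which is about the share of all genes. NPPB was lower in replicate 2 of both groups, by a log2 difference of -0.79 in sh-QKI cells and -2.94 in sh-Ctrl cells. Its pooled value was -1.86 (SE 0.115, limma adjusted p = 7.65e-56). As in every limma fit here, the variance is taken largely from a trend over all genes. This SE therefore does not measure the spread of NPPB itself, whose 2 differences lay 2.15 apart. Over the alternatives, the largest adjusted p for NPPB was 0.0119, with limma and no filter on low values. P2RX5 was lower in replicate 2 of both groups, at -1.25 (SE 0.152, limma adjusted p = 1.77e-15), and so was IGFN1, at -0.94 (SE 0.147, limma adjusted p = 6.57e-10). SLITRK5 was higher in replicate 2 of both groups, at 0.58 (SE 0.166, limma adjusted p = 0.000926).

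BRSK2 was lower in replicate 2 of both groups, at -0.36 (SE 0.166), with a limma adjusted p of 0.0465, close to the threshold. PCDH7 and GABRA3 did not pass the test, at -0.02 (SE 0.165, limma adjusted p = 0.91) and -0.12 (SE 0.152, limma adjusted p = 0.48). When the group was not a block, an alternative chosen after the data were seen, SLITRK5 and BRSK2 no longer passed, with limma adjusted p of 0.0873 and 0.344. In the same fit IGFN1 lost its call without sh-Ctrl replicate 1 (adjusted p = 0.14) and without sh-QKI replicate 2 (0.0523), while NPPB and P2RX5 passed with any 1 library left out, at most at 0.00429 and 0.0394. The SD of the difference between numbers over all tested genes was 0.660 in sh-QKI cells and 0.812 in sh-Ctrl cells, against 0.196 and 0.208 for the difference between groups.

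The base composition of the transcripts moved with the number. Across 11383 genes, which are not independent replicates, the difference of replicate 2 from replicate 1 had a Pearson correlation of -0.70 and a Spearman correlation of -0.729 with transcript GC content. Its median ran from 0.678 in the fifth of genes lowest in GC to -0.755 in the fifth highest in GC. The difference of sh-QKI from sh-Ctrl within a number moved with GC content too, in opposite directions. Its Pearson correlation was -0.356 within replicate 1 and 0.482 within replicate 2. The within-number ratios given above are not corrected for this. The 4 members lower in replicate 2 had a GC content of 56.8% to 64.7%, and the other 3 had 46.8% to 52.7%. After a correction for GC content, chosen after the data were seen, BRSK2 turned to 0.53 (limma adjusted p = 0.0136), while NPPB stayed lower in replicate 2 at -1.39, P2RX5 at -0.77 and IGFN1 at -0.47.

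**Figure D4:**
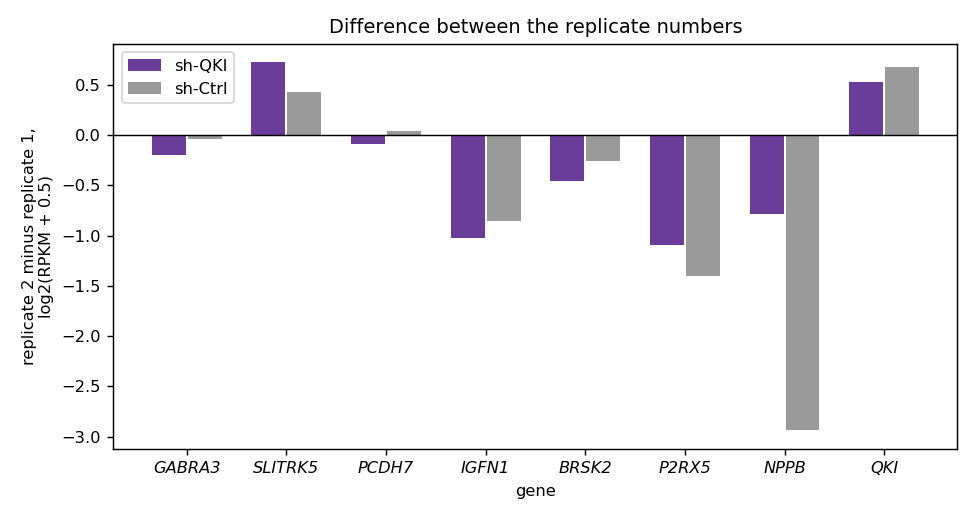
Log2 difference of replicate 2 from replicate 1 for the 7 members and QKI, with sh-QKI left of sh-Ctrl. NPPB is lowest, with a difference of -0.79 in sh-QKI cells and -2.94 in sh-Ctrl cells, and SLITRK5 is the highest member at 0.58 over both groups.

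The same correction left all members but NPPB on their side of 0 within both numbers. Within replicates 1 and 2, GABRA3 was at -1.13 and -1.24, PCDH7 at -0.89 and -0.98, SLITRK5 at -0.99 and -0.80, and IGFN1 at -0.81 and -1.16. BRSK2 was at 1.25 and 0.74, P2RX5 at 0.94 and 1.07, and NPPB at 0.06 and 2.02. NPPB still had the widest gap between the numbers, among 11383 genes.

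The relatives of the members were mostly low or not listed, and the log2 difference of those tested was at most 0.20 in size. Families were taken whole, and the relatives named were picked after their values were seen. Of the 18 other GABA-A receptor subunit genes, 7 were listed and 1 passed the filter, GABRE, the epsilon subunit. GABRE was at 7.92 and 12.7 RPKM in sh-QKI cells and at 7.62 and 13.3 RPKM in sh-Ctrl cells, a log2 difference of -0.01. It lies 191.554 kb from GABRA3, in the same cluster of subunit genes on the X chromosome. None of the 5 other SLITRK genes and none of the 10 other nonclustered protocadherin genes passed the filter, and the highest means among them were 0.0318 RPKM for SLITRK6 and 0.2499 RPKM for PCDH1.

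BRSK1, the other BRSK kinase, was at 3.15 and 2.29 RPKM in sh-QKI cells and at 3.61 and 2.04 RPKM in sh-Ctrl cells. Of the 6 other P2X receptor genes, all were listed and 3 passed the filter, and P2RX4, the most abundant, was at 3.997 and 4.38 RPKM in sh-QKI cells and at 4.32 and 3.43 RPKM in sh-Ctrl cells. NPPA, which encodes the atrial natriuretic peptide, did not pass the filter, at 0.464 and 0.411 RPKM in sh-QKI cells and at 0.754 and 0.206 RPKM in sh-Ctrl cells. Its lowest library was the same as that of NPPB, but NPPA had only 12 and 18 reads in sh-QKI cells and 19 and 9 in sh-Ctrl cells.

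Beyond the families, 10 lists of genes tied to the members' roles were examined, without the members themselves. They hold 235 genes, of which 200 were listed and 95 passed the filter. Limma without a block called 0 of them, with 0 at an unadjusted p under 0.05, and voom without a block called 0 of all genes. Fits without a block leave the difference between the numbers in their error and did not call even QKI. Nothing about the list genes is therefore read from these counts. When the replicate number was a block, limma called 0 higher and 2 lower, against 0.49% of all tested genes higher and 0.364% lower. The median log2 difference over these genes was 0.02, beside 0.03 over all genes tested.

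SLIT2, a secreted guidance cue for axons, was at 1.18 and 1.42 RPKM in sh-QKI cells, against 1.93 and 2.68 RPKM in sh-Ctrl cells. It was the 1 gene called among 6 tested in the list of SLITRK and synaptic leucine-rich repeat proteins, at -0.63 (SE 0.154), with a limma adjusted p of 0.0079 with the block. SLIT2 was lower within both numbers. The median of its list was 0.05, with 4 genes above 0 and 2 below.

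CYFIP2, a subunit of the WAVE complex that controls actin, was at 0.797 and 0.636 RPKM in sh-QKI cells, against 1.4995 and 1.26 RPKM in sh-Ctrl cells. It was the 1 gene called among 7 tested in the list of protocadherins and their partners, at -0.63 (SE 0.160), with a limma adjusted p of 0.0137 with the block. CYFIP2 was lower within both numbers. The median of its list was 0.00, with 4 genes above 0 and 3 below.

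In the other lists no gene was called with or without the block. Genes that make, move and anchor at GABA synapses had a median log2 difference of 0.10 over 10 tested genes, with 7 above 0. GABARAP, which binds GABA-A receptors and takes part in autophagy, was the most abundant of them, at 64.4 and 89.5 RPKM in sh-QKI cells and at 61.6 and 82.2 RPKM in sh-Ctrl cells. Purinergic receptors and ectonucleotidases had a median of 0.09 over 12 genes, with 7 above 0. NT5E, the ectonucleotidase that makes adenosine, was at 15.9 and 12.4 RPKM in sh-QKI cells and at 15.4 and 20.5 RPKM in sh-Ctrl cells, with the groups overlapping.

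Natriuretic peptide receptors and processing genes had a median of 0.05 over 4 genes, with 3 above 0. NPR2, the receptor for C-type natriuretic peptide, was at 3.95 and 2.77 RPKM in sh-QKI cells and at 3.16 and 2.23 RPKM in sh-Ctrl cells. FURIN, a protease that cleaves the precursor of B-type natriuretic peptide, was at 21.9 and 13.8 RPKM in sh-QKI cells and at 23.5 and 11.3 RPKM in sh-Ctrl cells. Neither passed the test, and the groups overlapped for both.

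The list of immunoglobulin and fibronectin domain genes of the sarcomere, which also holds the elongation factor EEF1A2, had a median of 0.05 over 8 genes, with 5 above 0. FLNC, a filamin of muscle, was at 162 and 29.0 RPKM in sh-QKI cells and at 182 and 23.4 RPKM in sh-Ctrl cells, so its replicate 2 was low in both groups, as for IGFN1. The list of LKB1 and the AMPK-related kinases also holds other genes, among them STRADA, WEE1 and TSC2. It had a median of -0.00 over 22 genes, with 11 above 0 and 11 below. MELK, a kinase of dividing cells, was at 31.5 and 41.2 RPKM in sh-QKI cells and at 31.8 and 42.4 RPKM in sh-Ctrl cells. Voltage-gated channel subunits had a median of 0.08 over 13 genes, with 7 above 0, and KCNMA1, the pore of the BK potassium channel, was at 8.01 and 3.38 RPKM in sh-QKI cells and at 8.70 and 3.11 RPKM in sh-Ctrl cells.

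Repressors that keep neuronal genes off in other tissues had a median of 0.02 over 12 genes, with 8 above 0. PTBP1, which represses neuronal exons, was the most abundant of them, at 142 and 81.8 RPKM in sh-QKI cells and at 142 and 72.4 RPKM in sh-Ctrl cells. REST, the best known of them and picked after its values were seen, was at 8.17 and 9.62 RPKM in sh-QKI cells and at 7.68 and 10.5 RPKM in sh-Ctrl cells.

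**Figure D5:**
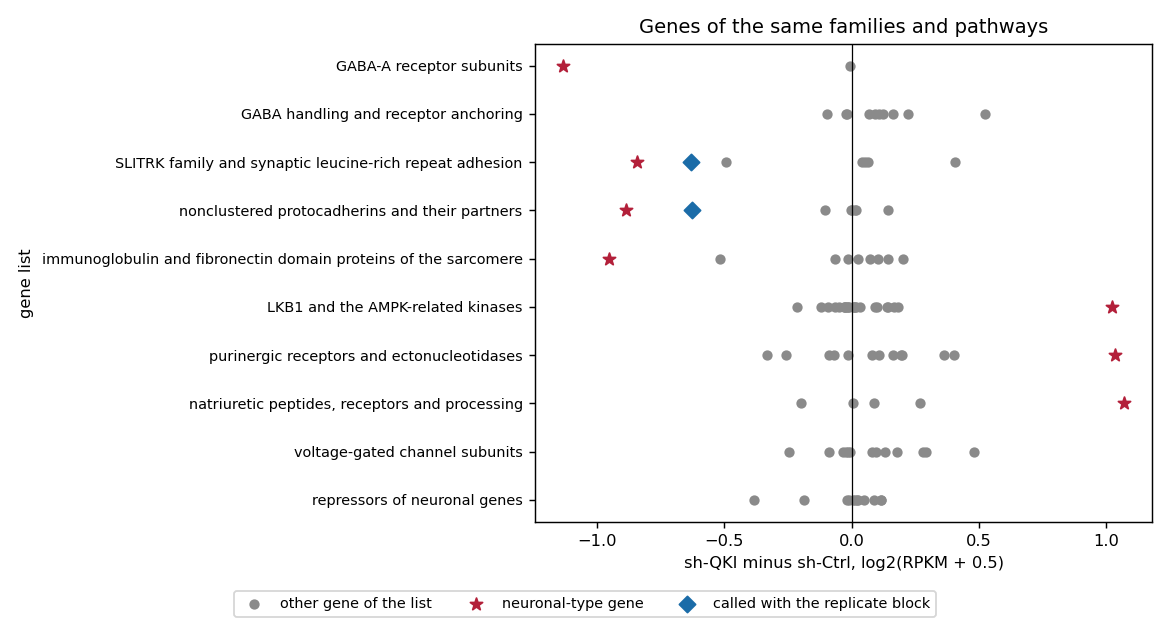
Mean log2 difference of sh-QKI from sh-Ctrl for each tested gene of the 10 lists. Members are added as stars, and genes called with the replicate block are diamonds. The list medians, which leave out the members and are not drawn, lie between -0.01 and 0.10. SLIT2 and CYFIP2, both at -0.63, are the lowest points apart from members.

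The cell type was checked against marker genes. Of 12 bronchial epithelial markers, 11 were listed and 8 passed the filter, with a sum of 787 and 314 RPKM in sh-QKI cells and 832 and 262 RPKM in sh-Ctrl cells. KRT8 was at 227 and 109 RPKM in sh-QKI cells and at 248 and 91.5 RPKM in sh-Ctrl cells, and KRT18 was at 189 and 120 RPKM in sh-QKI cells and at 169 and 103 RPKM in sh-Ctrl cells. KRT5, a marker of basal cells, was at 0 in every library. KRT19, CDH1 and TP63 did not pass the filter. CDH1 was at 0.0260 and 0.181 RPKM in sh-QKI cells and at 0.0267 and 0.129 RPKM in sh-Ctrl cells, and TP63 was at most at 0.00463 RPKM. EPCAM passed at low levels, with 0.772 and 0.811 RPKM in sh-QKI cells and 0.769 and 0.619 RPKM in sh-Ctrl cells. The epithelial markers were thus not uniformly high. Of 19 neuronal markers, 14 were listed, and TUBB3 was the only one to pass the filter. TUBB3, a tubulin also made outside neurons, was at 23.9 and 6.72 RPKM in sh-QKI cells and at 23.6 and 4.79 RPKM in sh-Ctrl cells. STMN2, NEFL, ELAVL4, GAP43 and CHAT were at 0 in every library.

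The summed level of the neuronal markers was 25.3 and 8.14 RPKM in sh-QKI cells and 24.6 and 5.86 RPKM in sh-Ctrl cells, most of it TUBB3. SYP, a protein of synaptic vesicles picked after its values were seen, did not pass the filter, at 0.340 and 0.539 RPKM in sh-QKI cells (52 and 140 reads), against 0.0938 and 0.0658 RPKM in sh-Ctrl cells (14 and 17 reads). Both sh-QKI libraries lay above both sh-Ctrl libraries. SNAP25 and INA, the most abundant neuronal markers after TUBB3, did not share this, and the groups overlapped for both. SNAP25 was at 0.236 and 0.286 RPKM in sh-QKI cells and at 0.0537 and 0.527 RPKM in sh-Ctrl cells. INA was at 0.331 and 0.240 RPKM in sh-QKI cells and at 0.494 and 0.0535 RPKM in sh-Ctrl cells. The neuroendocrine markers CALCA, GRP and INSM1 were at 0 in every library. SCG2, the only neuroendocrine marker named here to pass the filter, was at 1.10 and 2.58 RPKM in sh-QKI cells and at 0.621 and 2.0 RPKM in sh-Ctrl cells. Of 15 muscle markers, 14 were listed, and their sum was 2.25 and 0.242 RPKM in sh-QKI cells and 1.62 and 0.129 RPKM in sh-Ctrl cells. ACTA1 made up most of it in replicate 1 of both groups, at 1.58 RPKM in sh-QKI cells and 1.03 RPKM in sh-Ctrl cells, and was at 0.0235 and 0 RPKM in their replicate 2. Of 9 glial markers, 7 were listed, and their sum was 0.804 and 1.39 RPKM in sh-QKI cells and 0.990 and 1.34 RPKM in sh-Ctrl cells. The neuroendocrine sum was 1.95 and 2.79 RPKM in sh-QKI cells, against 1.02 and 2.12 RPKM in sh-Ctrl cells. The neuronal, muscle and neuroendocrine sums were all higher in sh-QKI cells within both numbers. The neuronal sums were nearly equal within replicate 1, at 25.3 against 24.6 RPKM. The muscle sums were near the floor within replicate 2, where ACTA1 had 3 reads in sh-QKI cells and 0 in sh-Ctrl cells. The part of these sums in the results on the members was not tested.

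The genes with patterns most like those of the members were found by the Euclidean distance between centred log2(RPKM + 0.5) values over the 4 libraries. The members were chosen on these same values, so nearness to other genes with a large difference between groups is built in and is only a description. PCDH7 was nearest to RGS4 at a distance of 0.08 and to CTSC at 0.23. GABRA3 was nearest to RGS4 at 0.23 and to PCDH7 at 0.27, so these members share a neighbour. RGS4, a regulator of G-protein signalling that is abundant in brain, was at 0.986 and 0.799 RPKM in sh-QKI cells, against 2.06 and 2.20 RPKM in sh-Ctrl cells.

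SLITRK5 was nearest to RAB12 at 0.26 and to NRP2 at 0.36, and IGFN1 to DIO2 at 0.20 and to C14orf149 at 0.20. Among the members that were higher, P2RX5 was nearest to MAPK8IP2 at 0.27 and to DIRAS1 at 0.30, and BRSK2 to DISP2 at 0.39 and to IGF2 at 0.42. NPPB had no close match, with LRP3 at 0.90 and KRT17 at 0.93. Only these 2 genes lay within a distance of 1 of NPPB, compared with 348 for GABRA3 and 3837 for PCDH7. PCDH7 is near 0.5 RPKM, where this scale understates differences.

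The nearest tested genes on either side of each member in the genome, a choice made after values were seen, did not share its size of difference. The 14 neighbours had log2 differences between -0.44 for ARAP2, a neighbour of PCDH7, and 0.23 for KIAA2013, a neighbour of NPPB. Some lie far off, at 4801 and 3695 kb from PCDH7 and at 6878 and 7408 kb from SLITRK5. For SLITRK5 and PCDH7 they therefore do not show how the close surroundings behaved. ARAP2 was at 0.411 and 0.676 RPKM in sh-QKI cells, against 0.597 and 1.30 RPKM in sh-Ctrl cells. Antisense long noncoding genes overlap exons of SLITRK5 by 270 bases, of PCDH7 by 1602 bases and of IGFN1 by 89 bases. The labels name a TruSeq RNA kit, a kind that does not mark the strand, and no source states that strand was used in counting, so reads from these and from the members cannot be told apart.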

How the data were processed

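The deposited values are RPKM, 1 table per library, made by the authors from single-end Illumina GAII reads from total RNA. Sequencing was done 2 times, at 2 read lengths. Bowtie, with its version not stated, aligned the reads to hg19 and Ensembl protein-coding exon junctions, with up to 3 mismatches. Ambiguous reads were left out, and the labels tie no replicate number to a read length. All values came out as whole reads at a relative tolerance of 1e-11, which could be a whole fraction of the true ones. Limma 3.58.1 (R 4.3.3, trend, two-sided, Benjamini-Hochberg adjusted p under 0.05) was run on log2(RPKM + 0.5) for the 11829 genes that averaged 0.5 RPKM or more; voom used recovered reads. Code was tested on simulated data. GC content was corrected by median deviations in 50 bins. Positions come from GENCODE lifted to hg19 (96.2% of tested genes had a transcript). Members and lists were chosen with earlier results of these data known.

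The genes named are the members, QKI, the most abundant and the called genes of each list, marker genes, and the 2 nearest patterns per member, and of the abundant list genes only some are printed. Others are said to be chosen after their values were seen. Alternatives were other pseudocounts, filters, centring, voom, the replicate block, each library left out, the GC correction and, for the replicate number, no group block. Other steps ran in Python 3.11.15 (pandas 2.3.3, numpy 2.4.6, matplotlib 3.10.9, scipy 1.17.1). The value of 1 further marker gene is not reported here.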

Additional observations from a re-analysis of the deposited data

How the results depend on the processing

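Between sh-QKI and sh-Ctrl cells, limma without a block called 0 genes, and leaving out each library in turn gave 0 to 3. With the replicate number as a block it called 101, with median centring as well 114, with voom 50 and with the GC correction 207. Same-numbered libraries deviated together (r = 0.953 across genes). Their read totals were alike as well, at 20571555 and 20052951 in replicate 1 and 34862008 and 34706058 in replicate 2. The paper states that RNA-Seq was done 2 times, at 2 read lengths. The labels tie neither to a replicate number and give no shared culture or day, and what same-numbered libraries share was not tested. Of the 95 list genes, 0 were called without the block, 2 with it (SLIT2 and CYFIP2), 3 with median centring as well (ID1 added), 3 with voom (SLIT3 added) and 4 with the GC correction (PTPRS and MYPN added). QKI passed only with the block, at -1.72, at -1.75 with median centring or with the GC correction and at -1.89 with voom. Of the members, 4 had a log2 difference past 1 in size, against 7 with a pseudocount of 0.1, 1 with a pseudocount of 1 and 7 with voom, and 2 to 5 with each library left out. Leaving out 1 library moved the difference between -0.40 and 2.54 for NPPB, lowest without sh-Ctrl replicate 2, between 0.33 and 1.74 for P2RX5 and between -1.47 and -0.44 for IGFN1. NPPB was the only member to change direction between the groups in the alternatives run. For the replicate number, voom gave 0.0297 for GABRA3 and 0.13 for PCDH7, the GC correction gave 0.53 for BRSK2, and a pseudocount of 1 left BRSK2 short of the threshold, at a limma adjusted p of 0.0523. The split of the 8383 genes that differed was 4163 higher and 4220 lower, and with voom 5022 higher and 3383 lower of 8405. Leaving out a library leaves this fit no residual degrees of freedom, so it was done without the group as a block, added after the data were seen and with the lone library assumed to vary like the other arm. That called 7023 to 7928 genes, against 8265 with all libraries, and moved GABRA3 between -0.73 and 0.48 and PCDH7 between -0.50 and 0.46 (both above 0 without sh-QKI replicate 2, and at 0.41 and 0.39 without sh-Ctrl replicate 1), BRSK2 between -0.92 and 0.21 (above 0 without sh-QKI replicate 1, and at 0.11 without sh-Ctrl replicate 2), SLITRK5 between 0.0835 and 1.07 and NPPB between -2.94 and -0.79. A minimum mean of 1 RPKM drops SLITRK5, PCDH7 and BRSK2. Depth limits SLITRK5 most, with 16 reads in its lowest library.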
